A study of Xenopus tropicalis with 6 samples.

Results

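The 100 gene identifiers that took the most reads in control Xenopus tropicalis blastulae were followed into blastulae in which tet2 and tet3 had been targeted. They were the 100 of 28165 identifiers with the highest mean CPM (reads per 1000000 counted) over the 3 libraries of control-injected embryos. The libraries of the Tet2/Tet3 group had no part in the choice. The control levels below therefore describe the choice and are no finding, whereas the levels in Tet2/Tet3 libraries did not enter it.

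Xenopus tropicalis is the western clawed frog, and each of the 6 libraries held polyadenylated RNA of 50 whole embryos at blastula stage 9. The 3 control libraries came from embryos given 60 ng of a standard control Morpholino, and the 3 Tet2/Tet3 libraries from embryos given 30 ng of a Tet2 and 30 ng of a Tet3 Morpholino. All injections, of 5 nl, went into the animal hemisphere at the one-cell stage. Morpholinos are synthetic antisense oligonucleotides, and those used here sit on the start codon and block translation, so the amount of tet2 or tet3 mRNA would not measure the knockdown. The labels give no strain or allele, and do not say whether same-numbered libraries shared a clutch.

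The blastula is the stage at which a frog embryo passes from the mRNA stored in the egg to transcription of its own genome. Maternal mRNAs are cleared while new transcripts accumulate, and polyadenylation of stored mRNA changes as well. The TET enzymes oxidise 5-methylcytosine, a step towards removal of DNA methylation.

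The deposited identifiers are not paired with gene names, and a lookup in the RefSeq gene table (UCB_Xtro_10.0) found 0 of the 28165. No role, sequence, position or length can therefore be given for a member. The members are called by their rank in control, from 1 for the highest mean CPM to 100, and 3 of them also by identifier. Lists of ribosomal, translation factor, histone, cytoskeletal, cell cycle and mitochondrial genes were not analysed here. The stage and tissue labels were not checked against marker genes, and tet2 and tet3 were not analysed here, for the same reason. Without lengths, a high CPM means many reads, which a long transcript also gives, and not necessarily many molecules. Levels are compared below between libraries, not between genes.

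Library totals lay between 37973110 and 44792849 counts, so 1 CPM stood for 38.0 to 44.8 reads. The members' counts ran from 12730 to 211403 in single libraries, and counting error was at most 0.886% of a member's count. Spread between libraries, not depth, therefore limited each comparison. All 100 members passed the filter on low counts and were among the 13221 identifiers tested.

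At the lower limit of the choice the values ran on without a gap. On the scale of library totals, the members of rank 96 to 100 had mean control levels of 807.5, 803.3, 799.5, 793.7 and 790.03 CPM, and the next 5 identifiers had 783.4, 775.1, 772.4, 770.9 and 764.9 CPM. From here on, levels are CPM scaled with TMM factors (trimmed mean of M values, which aligns the bulk of the genes between libraries). On that scale the mean control levels of the members ran from 757.0 to 3268 CPM.

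Most of the 100 members were higher in Tet2/Tet3 embryos, each by a modest factor. In the test on group alone 49 rose and 1 fell, where 6.01% of all tested identifiers rose and 5.48% fell (edgeR quasi-likelihood test, Benjamini-Hochberg adjusted p under 0.05 over 13221 identifiers, n = 3 per group). The 49 rises lay between 1.2 and 1.87-fold, with a median of 1.39-fold. In all 49 the 3 Tet2/Tet3 libraries lay above the 3 controls, as they did for 16.4% of all tested identifiers. A call on group alone favours such separation, so it adds no support to the calls. In bulk embryos, a change in the number of cells of a type and a change in RNA per cell cannot be told apart. The values are shares of the counted RNA, not amounts per embryo.

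Over all 100 members, called or not, the median log2 fold change was 0.32, with quartiles of 0.18 and 0.50 and a range from -0.55 to 0.91. The median over all 13221 tested identifiers was -0.01, with quartiles of -0.29 and 0.23. The fold change was positive for 86 members and negative for 14. The plot of change by rank shows both the shift of the whole list and the few members that go against it.

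**Figure D1:**
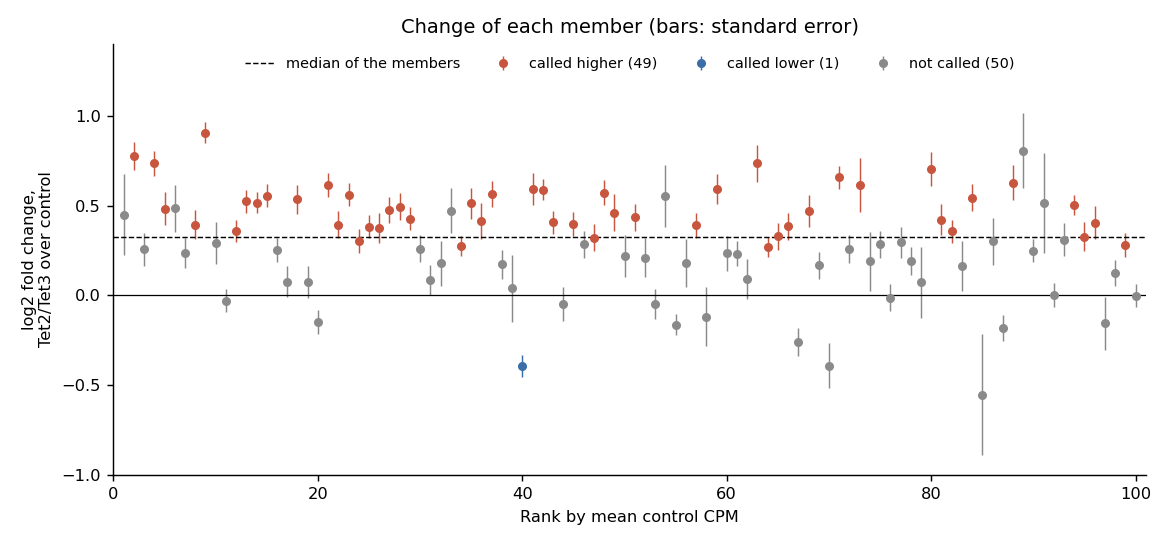
Log2 fold change (Tet2/Tet3 over control, edgeR on group alone, bars are standard errors) of each member against its rank by mean control CPM. Most points lie above 0, the dashed line marks the median of 0.32, and the single member called lower is that of rank 40.

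The counts depended on how the pairing of libraries was treated. Same-numbered libraries went together, and with the replicate number as a block in the fit 77 members rose and 7 fell, against 23.4% and 23.8% of all tested identifiers. All 49 rises of the fit on group alone were among the 77. The 28 rises added by the block belonged to members that varied more between controls, with a median standard deviation of 0.10 (log2 CPM) against 0.05 for the 49. The split itself favours this, since the fit on group alone counts spread between controls as error. Neither fit called the change of 16 members. The fit on group alone gave 23, 12 or 4 rises when control replicate 1, 2 or 3 was left out (1.23%, 0.542% or 0.148% of tested identifiers rose), and 63, 19 or 6 when Tet2/Tet3 replicate 1, 2 or 3 was (9.9%, 1.18% or 0.185%). The members' median stayed between 0.29 and 0.38 in these 6 fits.

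Scaling set part of the size. With library totals in place of TMM factors, 33 members rose and 5 fell, where 2.96% and 7.85% of all tested identifiers did. Rises were 86.8% of the called members on that scale and 98.0% with TMM factors. The median of all tested identifiers moved to -0.13 and that of the members to 0.20, so the distance between the list and the bulk was 0.33 on both scales. A change of factors shifts all identifiers of a library alike. The distance could therefore hardly move, and its being equal supports nothing by itself. TMM factors computed without the 100 members gave 49 rises and 1 fall, where 6.10% and 5.43% of all tested identifiers rose and fell. These factors hardly differed from those with the members, at most by 0.932 against 0.934, in Tet2/Tet3 replicate 2. The counts could therefore hardly move, and their being equal supports nothing by itself.

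Taken library by library, the direction held in each pair. Within pairs, the median log2 difference of the members, Tet2/Tet3 minus control, was 0.25, 0.40 and 0.38 in pairs 1, 2 and 3, and 84, 87 and 88 members were higher. Of all tested identifiers, 49.8%, 49.1% and 49.7% were higher in the same pairs. In all 3 pairs 80 members were higher and 9 lower, against 34.3% and 34.6% of tested identifiers. The 3 Tet2/Tet3 libraries lay wholly above the 3 controls for 67 members and wholly below for 6, against 16.4% and 16.7%. Pair 1 had the smallest differences: the difference in pair 2 exceeded that in pair 1 for 87 members.

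The members were chosen in the same controls that enter the fold change, which favours apparent falls. The choice was therefore repeated without the control of the pair that was read. When the 100 identifiers were picked from 2 controls and the change was read in the third pair, the medians were 0.26, 0.38 and 0.38 for pairs 1, 2 and 3. These lists shared 98, 98 and 99 identifiers with the members. The 100 identifiers with the highest mean CPM in Tet2/Tet3 libraries, a choice made after seeing the data that favours rises, had a median of 0.41.

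The member of rank 9, Xetro.I01029, rose most. Its level was 2018, 2103 and 2025 CPM in control replicates 1, 2 and 3 and 3673, 3887 and 3964 CPM in Tet2/Tet3 replicates 1, 2 and 3. The groups were far apart and each varied little, with means of 2049 ± 47 and 3841 ± 150 CPM (SD, n = 3). This rise of 1.87-fold, or 0.91 on the log2 scale (SE 0.06), had an adjusted p of 0.0013 by edgeR, and the pairs gave log2 0.86, 0.89 and 0.97. Its rank was 12, 9 and 8 among all identifiers of control replicates 1, 2 and 3, and 3, 4 and 4 in the same replicates of the other group.

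Xetro.D01947, of rank 2, had the next largest called rise. It stood at 3179.8, 3096 and 2788 CPM in controls, and in the Tet2/Tet3 group at 5114, 4931 and 5493 CPM. It took more reads than any other identifier in all 3 Tet2/Tet3 libraries and in control replicate 1, and ranked 2 in the other controls. The rise was 1.71-fold, or log2 0.78 (SE 0.08, adjusted p = 0.0050, edgeR). Its share of all counts went from 0.334%, 0.320% and 0.292% to 0.505%, 0.460% and 0.523%. Both this rise and that of Xetro.I01029 were called in all 20 alternative fits.

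Among the 10 members with the most control reads, 5 rose in the test on group alone and all 10 with the block. Of all tested identifiers 6.01% and 23.4% did. Rank 4 was at 2696, 2467 and 2461 CPM in controls and 4014, 4206 and 4467 CPM in Tet2/Tet3 libraries (log2 0.73, SE 0.07, adjusted p = 0.0045, edgeR). Rank 5 was at 2329, 2643 and 2350.1 CPM in controls and 3105, 3701 and 3429 CPM in Tet2/Tet3 libraries (log2 0.48, SE 0.09, adjusted p = 0.023, edgeR). The groups did not overlap in either.

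The level of the member of rank 1 varied with the replicate number in both groups, as that of rank 6 and of others below did. Rank 1 was at 2522, 3185 and 4098 CPM in control replicates 1, 2 and 3, and at 3349, 4713 and 5321 CPM in the same replicates of the Tet2/Tet3 group. The groups overlapped, yet each Tet2/Tet3 library lay above its own partner, by log2 0.41, 0.57 and 0.38. On group alone the log2 fold change of 0.45 (SE 0.23) had an adjusted p of 0.256, and with the replicate block 0.0011 (edgeR).

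Rank 3 differed least among the first 5, from 2760.1, 2943 and 2638 CPM in controls to 2958, 3556 and 3440.1 CPM. All 3 Tet2/Tet3 libraries lay above all 3 controls, but the lowest of them, at 2958 CPM, was close to the highest control, at 2943 CPM. Its log2 fold change of 0.26 (SE 0.09) had an adjusted p of 0.121 on group alone and 0.021 with the block (edgeR).

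**Figure D2:**
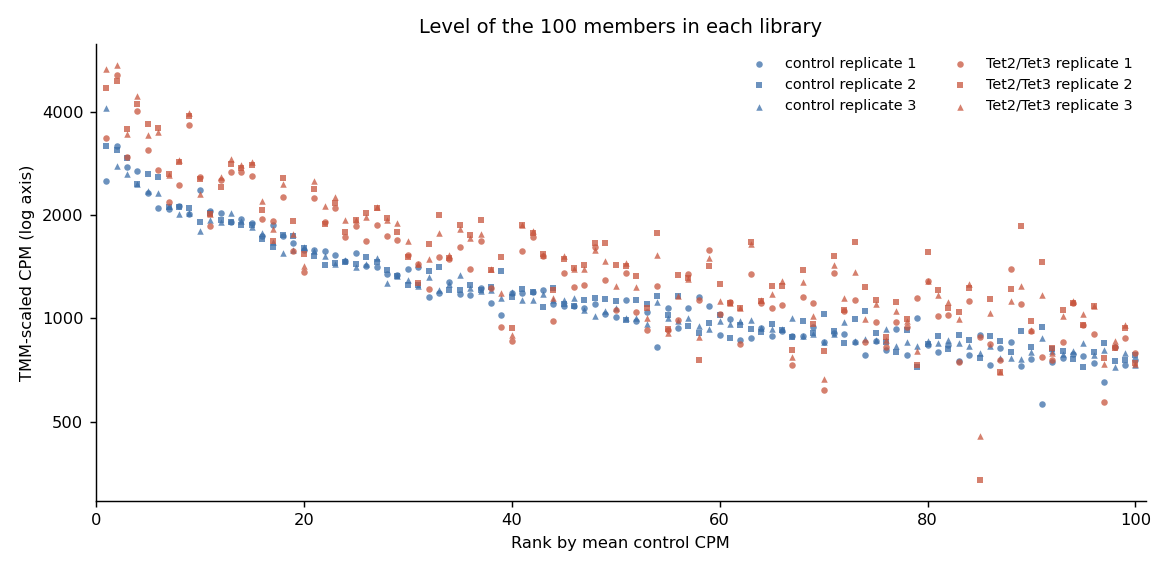
TMM-scaled CPM (log axis) of the 100 members in each of the 6 libraries against rank by mean control CPM, with controls in blue, Tet2/Tet3 libraries in red and a marker shape for each replicate number. The Tet2/Tet3 points lie above the control points for 67 members and below them for 6, and the lowest points are Tet2/Tet3 replicates 2 and 3 of the member of rank 85.

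Called rises of at least 1.5-fold numbered 12 of the 100 members, where 1.75% of tested identifiers had one, and none reached 2-fold. Beside ranks 2, 4 and 9 they were those of rank 21, 41, 42, 59, 63, 71, 73, 80 and 88. Rank 63 was at 878, 932 and 989 CPM in controls and 1348, 1665 and 1648 CPM in Tet2/Tet3 libraries, which do not overlap (log2 0.74, SE 0.10, adjusted p = 0.012, edgeR). That of rank 71 was at 907, 921 and 902 CPM and then at 1354, 1521 and 1429 CPM (log2 0.66, SE 0.07, adjusted p = 0.0050, edgeR). In this member the controls had an SD of 9.8 CPM and the Tet2/Tet3 libraries one of 84.1 CPM (n = 3), around means of 909.8 and 1434 CPM.

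Rank 80 was at 836, 841 and 862 CPM in controls and at 1283, 1564 and 1288 CPM in Tet2/Tet3 libraries, with replicate 2 the highest. This was log2 0.70 (SE 0.09, adjusted p = 0.010, edgeR). Rank 89 had a larger fold change than this but no call on group alone. It was at 725, 917 and 763 CPM in controls and 1100.1, 1865 and 1241 CPM in Tet2/Tet3 libraries, with replicate 2 highest in both groups. On the log2 scale the difference was 0.81 (SE 0.21, adjusted p = 0.056, edgeR), and with the block the adjusted p was 0.00023.

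The only member called lower on group alone was that of rank 40, Xetro.G01811. It was at 1190.0, 1151 and 1196 CPM in controls and at 859, 936 and 895 CPM in Tet2/Tet3 libraries, without overlap. This fall of 1.32-fold, or -0.40 on the log2 scale (SE 0.06), had an adjusted p of 0.015 by edgeR, and the pairs gave log2 -0.47, -0.30 and -0.42. Its rank went from 36, 45 and 39 in controls to 103, 106 and 108. The call was lost without control replicate 1, 2 or 3 and without Tet2/Tet3 replicate 3, with adjusted p of 0.058, 0.067, 0.089 and 0.091, while the log2 fold change stayed between -0.41 and -0.38.

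With the replicate block, 6 more members fell: those of rank 55, 67, 70, 85, 87 and 97. In that fit 23.8% of all tested identifiers fell, a larger share than among the members. Rank 70 was at 852, 1032 and 856 CPM in controls and 619, 804 and 666 CPM in Tet2/Tet3 libraries. No Tet2/Tet3 library reached the lowest control, and replicate 2 was highest in both groups. Its log2 fold change was -0.39 in both fits, with an adjusted p of 0.098 on group alone and 0.00062 with the block (edgeR). Rank 67 was at 887, 885 and 1000.01 CPM in controls and then at 731, 809.7 and 774 CPM, with a blocked log2 fold change of -0.26 (adjusted p = 0.0091, edgeR).

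The member of rank 85 differed between the groups mainly in pairs 2 and 3. It stood at 897, 767 and 791 CPM in controls and at 882, 338 and 453 CPM in Tet2/Tet3 libraries. The log2 difference was -0.02 in pair 1, -1.18 in pair 2 and -0.80 in pair 3, and its rank was 99, 600 and 338 in the Tet2/Tet3 libraries. No other member had as wide a range within a group, with a highest Tet2/Tet3 level 2.61 times the lowest against 1.17 times in controls. The adjusted p was 0.348 on group alone and 0.016 with the block (edgeR). Whether the pairs themselves differ was not tested.

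Other members showed little difference. Rank 11 was at 2060.3, 2025 and 1933 CPM in controls and 1863, 2017 and 2013 CPM in Tet2/Tet3 libraries, with overlapping groups (log2 -0.03, SE 0.06, adjusted p = 0.82, edgeR). Rank 20 lay lower in each Tet2/Tet3 library, at 1365, 1541 and 1424 CPM against 1581, 1602 and 1615 CPM. Its groups did not overlap, but the log2 fold change of -0.15 (SE 0.07) was called in neither fit, with adjusted p of 0.208 and 0.068 (edgeR). In 11 members the 3 pairs did not share a direction.

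Summed, the members took a larger part of the sequenced RNA in Tet2/Tet3 embryos. The 100 members held 12.96%, 13.1% and 13.04% of the counts in control replicates 1, 2 and 3 and 14.8%, 15.5% and 15.7% in Tet2/Tet3 replicates 1, 2 and 3. The means were 13.03 ± 0.07% and 15.3 ± 0.5% (SD, n = 3), a difference of 2.29 percentage points. Every Tet2/Tet3 library lay above every control, and the differences within pairs 1, 2 and 3 were 1.79, 2.45 and 2.62 points. The share has no test, since it is a sum over chosen members.

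The gain was largest, in proportion, at the top of the list. Members of rank 1 to 10 went from 2.57 ± 0.03% to 3.39 ± 0.20% of counts, 1.32 times as much. Members of rank 11 to 50 went from 5.85 ± 0.03% to 6.81 ± 0.19%, or 1.16 times, and those of rank 51 to 100 from 4.61 ± 0.07% to 5.13 ± 0.14%, or 1.11 times (SD, n = 3). These classes use control ranks only, and the ratios were not tested against each other.

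**Figure D3:**
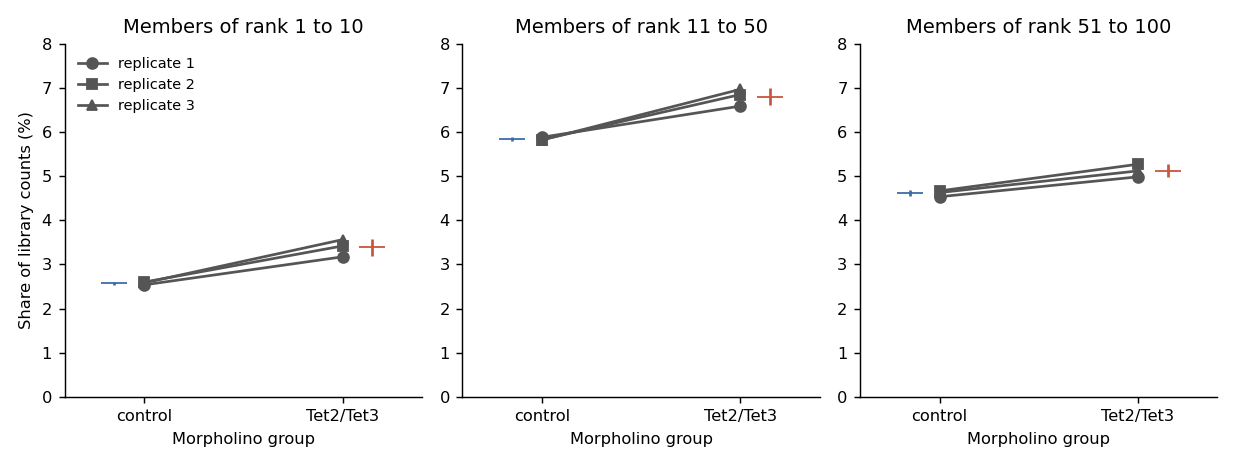
Share of each library's counts (%) held by members of rank 1 to 10, 11 to 50 and 51 to 100, with a line joining the control and Tet2/Tet3 library of each replicate number and bars giving mean ± SD (n = 3) of each group. All 9 lines rise, and the 3 controls lie close together while Tet2/Tet3 replicate 1 is the lowest of its group in each panel.

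A mean share above that of the controls was found for 78 members and a share below it for 22. The gains added up to 2.60 points and the losses to -0.31 points. The 4 largest gains were those of rank 2, 9, 4 and 1, at 0.181, 0.154, 0.139 and 0.085 points, and made up 21.5% of all gains. The 10 largest made up 36.9%. The gain was spread over many members, and the largest single loss was -0.037 points, at rank 40.

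The list itself kept most of its members. By mean CPM of the 3 Tet2/Tet3 libraries, 88 of the 100 members were again among the first 100, and 7 of the first 10 again among the first 10. In all 6 libraries taken singly 74 members were among the first 100. The 12 members that left had control ranks of 40 to 100, 9 of them beyond 75, and Tet2/Tet3 ranks down to 220, the latter for the member of rank 85. Of these 12, 1 fell and 1 rose in the test on group alone, and with the block 6 fell and 1 rose. Of all tested identifiers 5.48% fell and 6.01% rose on group alone, and 23.8% and 23.4% with the block. Leaving the list by a lower Tet2/Tet3 rank favours falls, so these counts support nothing by themselves. The one that rose, of rank 99, went from 733, 756 and 792 CPM to 877, 936 and 954 CPM (log2 0.28, SE 0.07, adjusted p = 0.044, edgeR) and yet came just outside the first 100.

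The 12 identifiers that took their places all had control ranks of 134 or better. All 12 rose in both fits, by 1.33 to 1.96-fold on group alone, and none overlapped between groups. Of all tested identifiers 6.01% rose on group alone and 23.4% with the block, and 16.4% lay above the controls without overlap. Being chosen for a high Tet2/Tet3 level, the 12 had to be higher there, so their count supports nothing by itself. The one with the largest change, of control rank 105, was at 632, 818 and 750.3 CPM in controls and 1233, 1568 and 1514 CPM in Tet2/Tet3 libraries.

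The same direction ran on below the limit of the list, with medians smaller than that of the whole list. Among the next 100 identifiers by control rank, 36 rose and 2 fell on group alone, with a median log2 fold change of 0.29. Among the 300 after these, up to rank 500, 71 rose and 16 fell (median 0.21), and among the 500 up to rank 1000, 79 rose and 43 fell (median 0.10). Among the 1000 up to rank 2000, 136 rose and 72 fell (median 0.09). Within the list, 30 of the first 50 rose and 1 fell, with a median of 0.39, and 19 of the second 50 rose and none fell, with a median of 0.27. The second 50 thus changed no more than the next 100 identifiers, and the size did not drop at the limit. With the block the falls were 1 of the first 50 and 6 of the second 50, by edgeR, where 23.8% of all tested identifiers fell. On group alone 6.01% of all tested identifiers rose and 5.48% fell.

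Precision also followed rank, which bears on the counts but not on the medians. The median standard error of the log2 fold change was 0.08 for the members, 0.09 for the next 100 identifiers, 0.11 for the 1000 up to rank 2000 and 0.17 for all tested identifiers. The differences between rank classes were not tested, and nothing here is particular to the first 100.

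**Figure D4:**
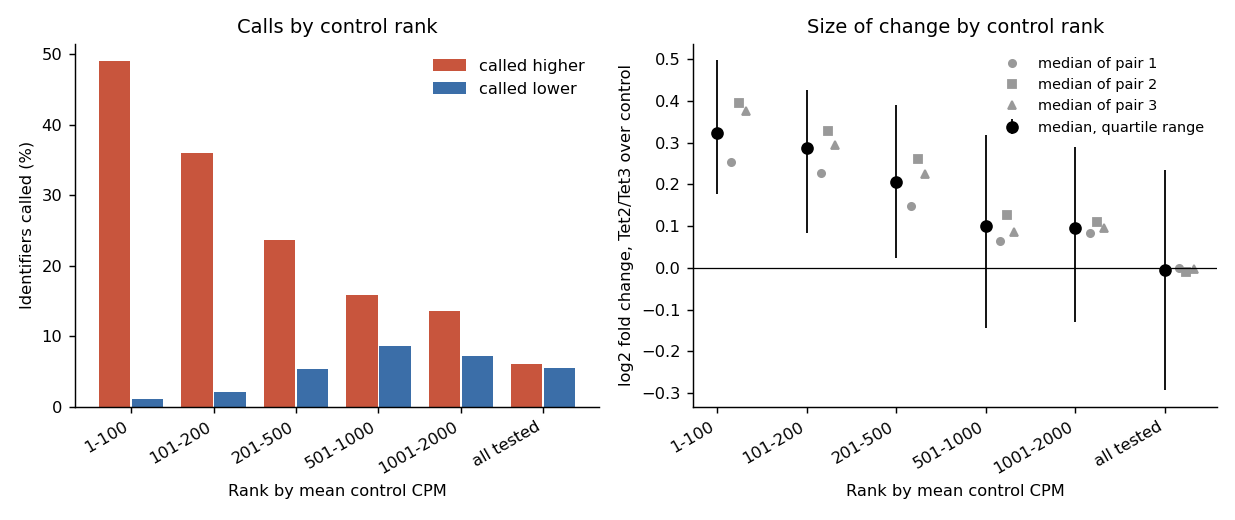
Left, percentage of identifiers called higher and lower on group alone (edgeR, adjusted p under 0.05) in classes of control rank and over all tested identifiers; right, median log2 fold change with quartile range, and in grey the median of each pair. Calls higher go from 49% in the first class to 13.6% in the last, and the median from 0.32 to 0.09, in the same order in each pair except that in pairs 1 and 3 the last class lies just above the one before it.

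Within a group the members were measured closely. The coefficient of variation between control libraries had a median of 5.45% over the members, with a range from 0.399% to 25.6%, against 12.05% over all tested identifiers. In Tet2/Tet3 libraries the medians were 6.91% and 15.1%. The next 100 identifiers by control rank had medians of 5.84% in controls and 9.39% in Tet2/Tet3 libraries. Close values in controls were thus not particular to the members. The coefficient of variation was larger in the Tet2/Tet3 group for 72 members, and for 64.6% of all tested identifiers. In controls the highest library lay within 1.2 times the lowest for 86 members, against 39.1% of all identifiers tested, and in Tet2/Tet3 libraries for 66, against 28.6%.

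Part of that spread belonged to the replicate number and was shared by both groups. In 11 members replicate 2 exceeded replicate 1 by over 1.2-fold in both groups, and in 2 members replicate 1 exceeded replicate 2, against 17.2% and 20.9% of all tested identifiers. Rank 91 varied most in this way, at 564, 946 and 876 CPM in controls and 769.7, 1463 and 1169 CPM in Tet2/Tet3 libraries. Its pairs nevertheless gave like differences, of log2 0.45, 0.63 and 0.42, and the adjusted p was 0.293 on group alone and 0.00041 with the block (edgeR). In the opposite sense, the member of rank 79 was at 1003, 720.1 and 831 CPM in controls and 1149, 731 and 803 CPM in Tet2/Tet3 libraries, with overlapping groups.

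None of these 13 members was called on group alone, and with the block 8 of the 11 rose and 2 fell. With the block 23.4% of all tested identifiers rose and 23.8% fell. The 13 were picked for a spread between replicates that the fit on group alone counts as error, which favours a lack of calls. Across the 100 members, the log2 ratio of replicate 2 to replicate 1 in controls had a Pearson correlation of 0.80 with that in Tet2/Tet3 libraries, and the ratios of replicate 3 to 1 and 3 to 2 had 0.68 and 0.60. The Tet2/Tet3 minus control differences correlated at 0.84 between pairs 1 and 2, 0.87 between pairs 1 and 3, and 0.93 between pairs 2 and 3. These describe 100 members that share libraries and scaling factors, and carry no p.

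**Figure D5:**
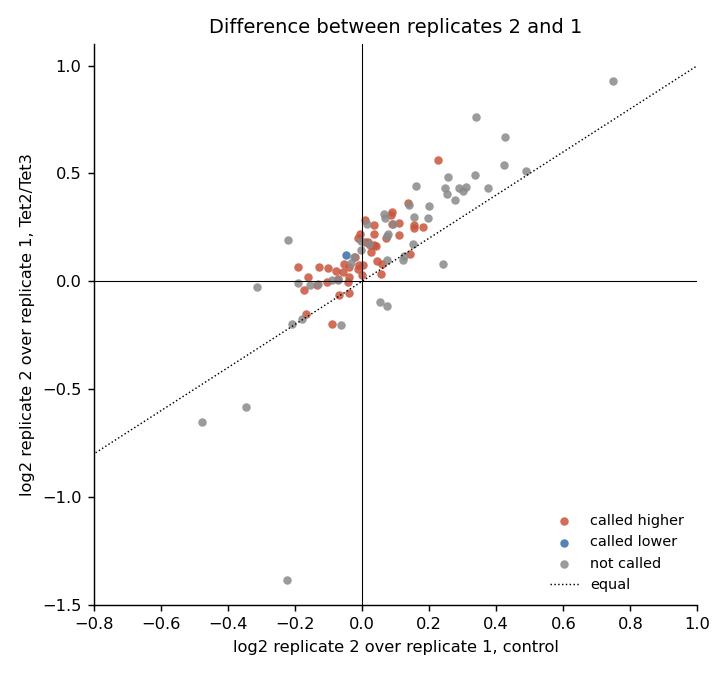
Log2 ratio of replicate 2 to replicate 1 in Tet2/Tet3 libraries against the same ratio in control libraries, for each of the 100 members, coloured by the call on group alone. The points follow the line of equality (dotted) but lie above it for 87 members, those with a larger difference in pair 2 than in pair 1, and the point at the bottom is the member of rank 85.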

How the data were processed

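Libraries were made with a stranded poly(A) kit from pools of 50 embryos, per the labels' protocols. Each library has 1 deposited file of read counts per identifier, in whole numbers, as made by the authors. STAR 2.5.4b, SAMtools 1.3.1 and featureCounts 1.5.1 are named in the submitters' processing notes. The sources used here state no genome build, annotation, strand setting or rule for reads with several matches, so overlapping or near-identical genes may share or lose reads, the members included.

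Members were ranked by CPM on library totals. Fits used R 4.3.3 and edgeR 4.0.16 over all 6 libraries: filterByExpr (minimum count 10), TMM factors, glmQLFit and glmQLFTest on group alone, and Benjamini-Hochberg adjustment over 13221 identifiers. Standard errors came from the F statistic. DESeq2 1.42.0 was an alternative. The fits were tested on simulated data. Log2 differences within pairs used a prior count of 2.

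The labels call the samples biological triplicates. Deviations of log2 CPM from the group mean correlated at 0.87, 0.87 and 0.74 between same-numbered libraries over tested identifiers, and at 0.77, 0.77 and 0.51 over the members. Between libraries of different number the correlation was -0.70 to -0.16 over tested identifiers and -0.73 to 0.16 over the members. Deviations from a group mean sum to 0 over its 3 libraries, so positive same-numbered values bring negative ones elsewhere. The negative values therefore add no support to the pairing. All same-numbered values exceeded 0.1, so libraries of 1 number were treated as pairs in the blocked fits and pair differences. Over the members, 0.16 between control replicate 3 and Tet2/Tet3 replicate 2 exceeded 0.1 too. The main fit used group alone, and blocked values are given beside it. What the pairs share is not stated.

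The rule for the members, the classes and the lists were set with earlier results of these data known. The rule for the members itself reads control levels only. Identifiers were printed by rule for the 2 largest called rises and falls among members whose groups did not overlap, and only 1 fall qualified. Other members and the entering identifier of rank 105 were described by rank after their values were seen.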

Additional observations from a re-analysis of the deposited data

How the results depend on the processing

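The members' median log2 fold change was positive under all alternatives run. It was 0.20 with library totals only and 0.26 to 0.39 under the other alternatives set at the start, of which leaving out 1 library gave 0.29 to 0.38, against 0.32. Against 49 rises and 1 fall, the replicate block gave 77 and 7, DESeq2 62 and 4, glmTreat against a 1.2-fold minimum 17 and 0, library totals 33 and 5, and no filter on low counts 36 and 1. The shares of all identifiers tested that rose and fell were 14.3% and 12.3% with DESeq2, 1.07% and 2.18% with glmTreat, and 3.04% and 2.79% with no filter. Without 1 library there were 4 (without control replicate 3) to 63 rises and 0 to 2 falls. Of all identifiers tested, 0.148% to 9.9% rose and 0.627% to 9.86% fell in those fits. Lists of 50 and 200 members had 30 and 85 rises, with 1 and 3 falls, and their share of counts grew by 1.77 and 3.01 points, against 2.29. Lists of 50 and 200 identifiers kept 43 and 178, against 88 of 100. Other alternatives were chosen after seeing the data. With the block these gave 63 rises, 14 falls and a median of 0.20 for library totals, 78 and 8 for DESeq2, and 59 to 81 and 3 to 8 without a pair. Of all identifiers tested, 14.6% rose and 33.7% fell with the block and library totals, and 23.0% and 20.9% with the block in DESeq2 (of 12195 given an adjusted p). With the block they were 25.2% and 24.7% without pair 1, 18.1% and 19.2% without pair 2, and 16.4% and 18.2% without pair 3. The 100 identifiers chosen in Tet2/Tet3 libraries, a choice that favours rises, had 60 rises, 0 falls and a median of 0.41. These counts, and those for lists of 50 and 200, came from the fit on group alone. In it 6.01% of all tested identifiers rose and 5.48% fell. The block ended no call of a member made on group alone. The call of Xetro.G01811 also failed against the 1.2-fold minimum (adjusted p = 0.132). Causes were not tested. Counting error was at most 0.886% of a member's count.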

Other observations

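Each identifier carries a letter from A to K before its number, whose meaning is not given in the sources used here. The members were spread over all 11 letters. The letters A, B and G had 13 members each, D and K 11 each, I 8, C and E 7 each, F and H 6 each, and J 5. Set against the tested identifiers of the letter, this was 1.19% for G, the highest, and 0.522% for H, the lowest. Of the 8 members with the letter I, 7 rose on group alone, with a median log2 fold change of 0.44. Of the 13 with the letter G, 4 rose and the median was 0.17, and the only called fall carries this letter. Over all 100 members 49 rose, with a median of 0.32, and 6.01% of all tested identifiers rose. Calls among all tested identifiers of a letter were not counted, so no difference between letters can be read from this. These counts are descriptions and were not tested.

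Pairs of members with identifier numbers next to each other occurred 2 times. Ranks 22 and 29 both rose, with log2 fold changes of 0.39 and 0.43 (adjusted p = 0.025 and 0.014, edgeR). Ranks 15 and 77 gave 0.56 and 0.29 (adjusted p = 0.0069 and 0.076, edgeR). Whether neighbouring numbers mean neighbouring or similar genes is not stated in the sources used here.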
